A study of Rattus norvegicus with 11 samples.

Results

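This report describes 3 genes, out of 32623 gene IDs in the count table, that make the inhibitory transmitter GABA and load it into synaptic vesicles. They were taken by Ensembl ID: Gad1 (ENSRNOG00000000007), Gad2 (ENSRNOG00000018200) and Slc32a1 (ENSRNOG00000015393). The symbols came with the list of IDs. The count table holds no symbols and the gene table used here holds no Ensembl IDs, so this pairing was not checked. All 3 IDs were found in the table and all 3 were among the 15758 genes that passed the filter on low counts.

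Poly(A)-selected RNA was sequenced from the ipsilateral spinal cord of adult male rats of 350 to 400 g. The naive group (3 libraries) has no further treatment in its labels. The sham group (5 libraries, labelled PTX+Sham SCS) received paclitaxel, a taxane used against cancer whose side effects include painful neuropathy, and had an electrode placed for spinal cord stimulation (SCS) that stayed off. The drug went into the peritoneum in doses of 1.5 mg/kg, given on day 1 and again on days 3, 5 and 7. The stimulated group (3 libraries, labelled PTX+SCS) received the same drug and electrode and was stimulated at 50 Hz with pulses of 0.2 ms, at 80% of what the labels abbreviate as MoT. Drug and electrode are shared by the sham and stimulated groups, so their separate effects cannot be told apart here. Libraries are named by group and title number, and the stimulated ones are SCS 1, SCS 2 and SCS 5. Whether each library came from its own rat is not in the labels. The p-values therefore rest on the spread between these libraries, which may be partly technical.

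GABA is made from glutamate by glutamate decarboxylase. Gad1 encodes the GAD67 form, which is found throughout the neuron and supplies much of its basal GABA. Gad2 encodes GAD65, which is enriched at nerve terminals. Slc32a1 encodes the vesicular transporter VGAT, which fills synaptic vesicles with GABA and, in glycinergic neurons, with glycine. In the dorsal horn of the spinal cord, inhibitory interneurons that use these proteins restrain the relay of pain signals, and GABA release in the cord is a proposed mechanism of spinal cord stimulation.

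Because the levels of the 3 genes are compared with each other across libraries, the promoter-proximal sequence is given for orientation. The 58 bases just before the outermost annotated start of each are shown, 5′ to 3′ from RefSeq on the build GRCr8, all on the plus strand. The counts were made on another build, rn6, so these positions do not apply to the count table.
Gad1, chr3:75777202-75777259: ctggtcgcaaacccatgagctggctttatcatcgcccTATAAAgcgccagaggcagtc
Gad2, chr17:89671660-89671717: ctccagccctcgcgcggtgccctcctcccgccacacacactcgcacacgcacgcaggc
Slc32a1, chr3:167687187-167687244: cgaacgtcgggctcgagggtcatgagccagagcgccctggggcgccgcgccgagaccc
Capitals mark the letters TATAAA, the core of a TATA box, which began 21 bases before the Gad1 start. Of 25774 windows of 58 bases before gene starts, 3.55% held TATAAA on either strand. The letters CCAAT (10.7% of windows), GGGCGG (14.3%) and TGACGTCA (0.687%) were searched on both strands and were in none of the 3 windows. G and C made up 55.2% of the Gad1 window, 74.1% of the Gad2 window and 75.9% of the Slc32a1 window, against a median of 53.4%. By these letters the Gad2 and Slc32a1 windows were more alike in composition than either was to that of Gad1. In the same annotation 0 other genes overlap any of the 3.

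Sequencing depth was 17401720 to 56775931 counts for naive, 11243288 to 22144967 for sham and 18633243 to 29395233 for stimulated libraries. The 3 genes were well covered at these depths. Gad1 had 1684 to 9222 counts per library, Gad2 1370 to 8288 and Slc32a1 2456 to 12713, each lowest in sham 4 and highest in naive 3, the smallest and largest libraries. The counting error was therefore at most 2.70% of any value. Levels are given as CPM, a count relative to the library total after scaling by TMM factors. CPM does not account for transcript length, so the levels of different genes are not ranked against each other.

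Slc32a1, the vesicular transporter, was the member that passed a test. Its mRNA was lower in stimulated than in naive libraries, which differ in drug, electrode and stimulation together. In bulk tissue, fewer cells that express a gene and less of its mRNA per cell cannot be told apart. All levels in this report are of mRNA, also where a gene is named by its protein. Neither the proteins nor GABA release were measured in these libraries. The naive libraries held it at 239 CPM (naive 1), 222 CPM (naive 2) and 223 CPM (naive 3). The stimulated libraries held it at 185 CPM (SCS 1), 164 CPM (SCS 2) and 197 CPM (SCS 5). Every stimulated library was below every naive library. Mean levels were 228 ± 10 CPM (SD, n = 3) in naive and 182 ± 17 CPM (SD, n = 3) in stimulated libraries, a log2 fold change of -0.32 ± 0.091 (SE; adjusted p = 0.0292 by edgeR). The fold was 0.800, with a 95% confidence interval of 0.699 to 0.916. Slc32a1 was the 1 member of 3 that passed this comparison, in which 14.9% of all tested genes passed (4.81% lower, with a median log2 fold change of -0.30). Groups did not overlap in 36.3% of tested genes (18.1% with stimulated below naive). A lower log2 fold change than that of Slc32a1 was found for 7.70% of the tested genes.

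With 1 library left out at a time the fold change of Slc32a1 in this comparison stayed below 0 in 11 of 11 fits, but 5 of them ended the call. The fits without a sham library left both groups compared unchanged, and all of these kept it. Of the fits without a naive or stimulated library, only that without SCS 5 kept the call (edgeR adjusted p = 0.0206). The edgeR adjusted p was 0.131 without naive 1, 0.0847 without naive 2, 0.0735 without naive 3, 0.057 without SCS 1 and 0.151 without SCS 2. The log2 fold change was smallest without SCS 2, at -0.24.

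**Figure D1:**
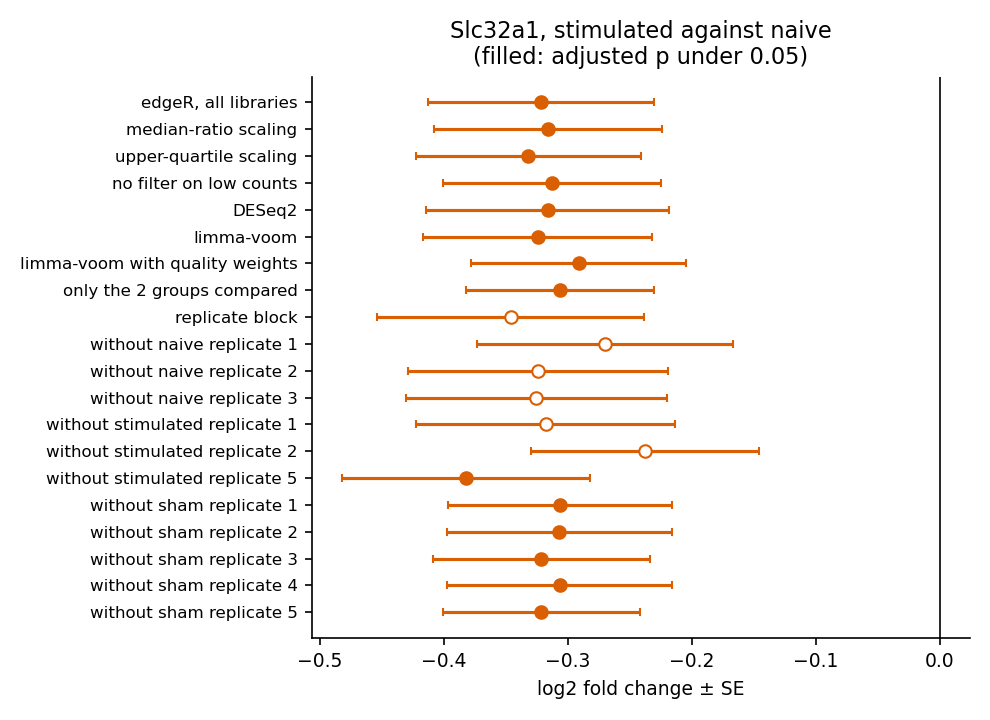
Log2 fold change of Slc32a1 in stimulated against naive libraries (x axis, with its SE as bars) for the fit over all libraries and 19 alternatives (y axis); filled points passed an adjusted p of 0.05. All points lie between -0.38 and -0.24, and 13 of the 19 alternatives passed. The fits without a sham library, which left both groups compared unchanged, are among those that passed.

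The mean level of Slc32a1 in sham libraries lay between those of the other groups. The libraries were at 220 CPM in sham 1, 220.01 CPM in sham 2, 183 CPM in sham 3, 219 CPM in sham 4 and 179 CPM in sham 5. The group thus fell into a set of 3 libraries just under the lowest naive library and a pair, sham 3 and sham 5, within the range of the stimulated libraries. The mean was 204 ± 21 CPM (SD, n = 5). All 5 sham libraries were below all naive libraries, by a gap of 220.01 to 221.75 CPM, where 7.03% of tested genes did not overlap in either direction. The gap was smaller than the counting error of either library beside it, 1.70% in sham 2 and 1.36% in naive 2. In sham against naive 0 of the 3 genes passed the test, and 0.14% of all tested genes did. The difference from naive was -0.16 ± 0.081 on the log2 scale (SE; adjusted p = 0.647 by edgeR) and did not pass. The difference of stimulated from sham libraries was also -0.16 ± 0.082 (SE; adjusted p = 0.28 by edgeR) and did not pass. Its fold of 0.893 had a 95% confidence interval of 0.790 to 1.01. In order of mean level Slc32a1 ran naive, sham, stimulated. Only the outer groups differed by the test, and neither step between neighbours did.

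Gad1, the GAD67 enzyme, followed the same order of means with more overlap. Naive libraries held it at 161 CPM (naive 1), 154 CPM (naive 2) and 161 CPM (naive 3). Sham libraries were at 154 CPM (sham 1), 141 CPM (sham 2), 160 CPM (sham 3), 150.3 CPM (sham 4) and 124 CPM (sham 5). Stimulated libraries were at 155 CPM (SCS 1), 114 CPM (SCS 2) and 138 CPM (SCS 5). SCS 1 lay among the naive libraries, while SCS 2 was the lowest of all 11.

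Mean Gad1 levels were 159 ± 4 CPM in naive (SD, n = 3), 146 ± 14 CPM in sham (SD, n = 5) and 136 ± 20 CPM in stimulated libraries (SD, n = 3). None of the 3 comparisons passed. Stimulated against naive gave a log2 fold change of -0.22 ± 0.10 (SE; adjusted p = 0.168 by edgeR), and the fold of 0.858 had an unadjusted 95% confidence interval of 0.736 to 0.999. This difference was smaller without SCS 2, at -0.098 (adjusted p = 0.586 by edgeR), and larger without SCS 1, at -0.31 (adjusted p = 0.0513 by edgeR). Sham against naive gave -0.12 ± 0.092 (SE; adjusted p = 0.763 by edgeR). Stimulated against sham gave -0.098 ± 0.093 (SE; adjusted p = 0.606 by edgeR), with a fold between 0.814 and 1.07 at 95% confidence.

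Gad2, the GAD65 enzyme of nerve terminals, varied most. Naive libraries held it at 144 CPM (naive 1), 135 CPM (naive 2) and 145 CPM (naive 3). Sham libraries were at 127 CPM (sham 1), 125 CPM (sham 2), 159 CPM (sham 3), 122 CPM (sham 4) and 111 CPM (sham 5). Stimulated libraries were at 144 CPM (SCS 1), 99.6 CPM (SCS 2) and 125 CPM (SCS 5). The highest of all 11 libraries was thus a sham library, sham 3, and all 3 groups overlapped.

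Mean Gad2 levels were 141 ± 6 CPM in naive (SD, n = 3), 129 ± 18 CPM in sham (SD, n = 5) and 123 ± 22 CPM in stimulated libraries (SD, n = 3). No comparison passed. Stimulated against naive gave a difference of -0.20 ± 0.13 on the log2 scale (SE; adjusted p = 0.371 by edgeR) and sham against naive gave -0.13 ± 0.12 (SE; adjusted p = 0.814 by edgeR). The difference of stimulated from naive rested largely on SCS 2: it was -0.050 without that library (adjusted p = 0.87 by edgeR), and -0.31 without SCS 1 (adjusted p = 0.139 by edgeR). In stimulated against sham the difference was -0.064 ± 0.12 (SE; adjusted p = 0.826 by edgeR), and the 95% confidence interval of the fold, 0.796 to 1.15, leaves room for a change in either direction.

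**Figure D2:**
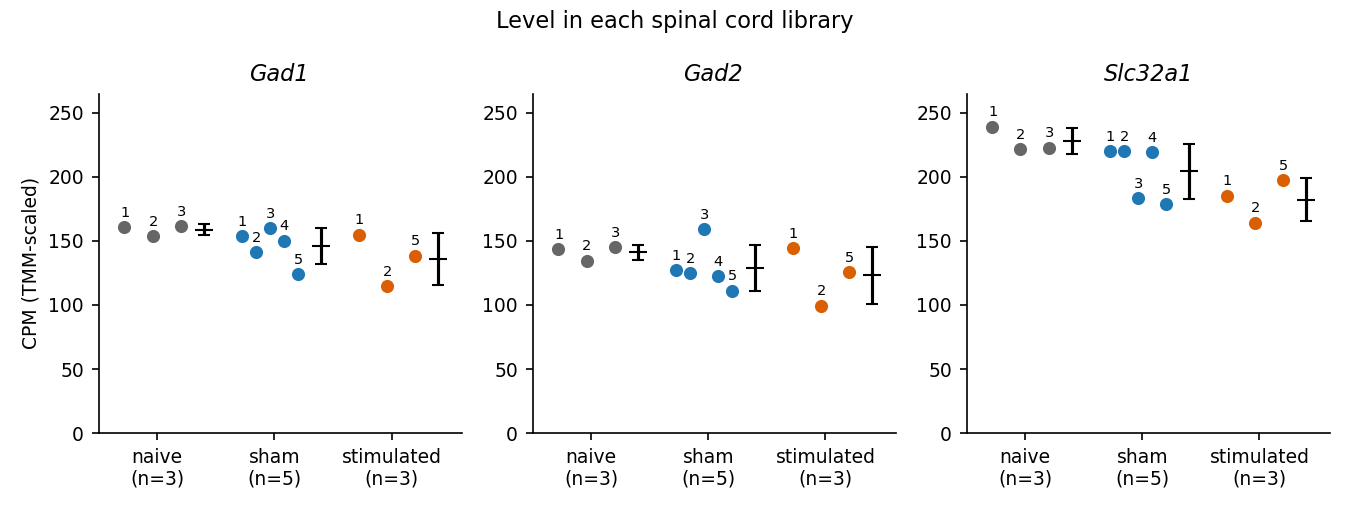
CPM of Gad1, Gad2 and Slc32a1 (y axis, from 0) in each of the 11 libraries by group (x axis); numbers beside points are the title numbers, and bars to the right of each group are mean ± SD. For Slc32a1 all stimulated points (164 to 197 CPM) lie below all naive points (222 to 239 CPM), while for Gad1 and Gad2 the groups overlap.

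**Figure D3:**
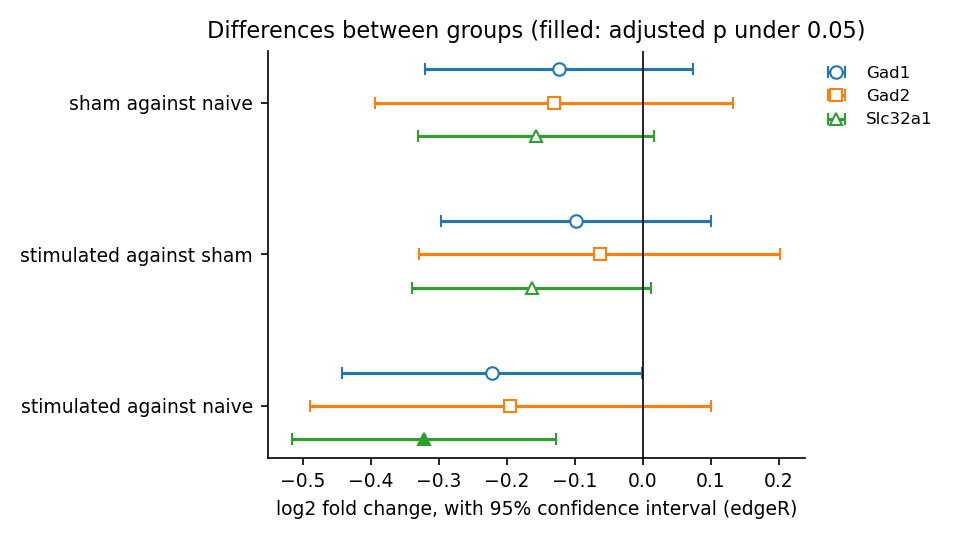
Log2 fold changes of the 3 genes (x axis, with 95% confidence intervals) in the 3 comparisons (y axis); the filled point passed an adjusted p of 0.05. All 9 values are below 0, and the filled one is Slc32a1 in stimulated against naive, at -0.32.

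The direct contrast of stimulation, stimulated against sham, therefore held 0 of 3 members called, where 3.57% of tested genes were called, and 0 of 3 without overlap, where 10.2% were. The share called depended on single libraries: 563 genes were called with all libraries, 36 without SCS 2 and 1057 without sham 5. For the enzymes the direction of this contrast also rested on single libraries. Without SCS 2 the log2 fold change turned to 0.017 for Gad1 (edgeR adjusted p = 0.967) and to 0.073 for Gad2 (edgeR adjusted p = 0.86). Without sham 3 that of Gad2 turned to 0.023 (edgeR adjusted p = 0.936). Slc32a1 stayed below 0 in all 11 such fits, from -0.22 to -0.088, but those without a naive library left both groups of this contrast unchanged. The smallest difference, -0.088 ± 0.085 (SE), came without SCS 2 (edgeR adjusted p = 0.751). The 3 comparisons share libraries, so their directions are not independent of each other.

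With the 3 groups pooled, libraries within a group differed in these genes more than in most genes of like abundance. This comparison was not made for each group alone. The SD of log2 CPM within groups was 0.15 for Gad1, 0.19 for Gad2 and 0.13 for Slc32a1. Genes within 2-fold of the same mean CPM had a median SD of 0.086 to 0.087. Of such genes, 89.7% had a lower SD than Gad1, 95.9% a lower SD than Gad2 and 84.5% a lower SD than Slc32a1. The coefficient of variation of Gad2 was 4.04% among naive, 14.0% among sham and 18.2% among stimulated libraries. The naive libraries lay closest together. For Gad1 the values in the same order were 2.71%, 9.63% and 14.9%, and for Slc32a1 they were 4.32%, 10.4% and 9.19%. The closeness of the naive libraries was not particular to these genes. Over all genes compared, pairs of naive libraries differed by a chi-square per degree of freedom of 4.98 to 5.61. It was 6.27 to 14.6 in pairs of sham and 17.3 to 27.8 in pairs of stimulated libraries. This measure grows with sequencing depth as well as with spread, and depth differed between the groups. These differences in spread were not tested.

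Much of that spread was common to both decarboxylases. SCS 2 was the lowest and sham 5 the second lowest library for all 3 genes. Over all genes with a mean of at least 1 CPM, deviations of SCS 2 and sham 5 from their group means correlated at 0.36. This was the highest value of any pair of libraries from different groups, so their likeness was not particular to these genes. Its cause was not tested. Across the 11 libraries Gad1 and Gad2 had a Pearson r of 0.91 and a Spearman rho of 0.91 in log2 CPM, and for deviations from the group means r was 0.90. Without SCS 2 and sham 5, the libraries farthest from the median of Gad1, r was 0.76. Among 14459 genes with a mean of at least 1 CPM, Gad1 was the 12th most alike to Gad2, and Gad2 the 96th most alike to Gad1, where the median r of a gene with Gad1 was 0.0058.

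Slc32a1 followed the enzymes less closely. Its r with Gad1 was 0.69 (rho 0.62) and fell to 0.11 without SCS 2 and sham 5, so it depended on those libraries. They were left out as the farthest from the median of Gad1, which narrows the range that r can draw on. Without sham 3 alone the r with Gad1 was 0.83. Its r with Gad2 was 0.42 (rho 0.42), and it was 0.054 without SCS 2 and 0.69 without sham 3. Without both SCS 2 and sham 3, the libraries farthest from the median of Gad2, it was 0.43. For deviations from the group means r was 0.50 with Gad1 and 0.18 with Gad2. By rank of r, Slc32a1 stood 1610th for Gad1 and 3400th for Gad2. These correlations describe 11 libraries from 3 groups and were given no test. The IDs with the highest mean r to the 3 genes were ENSRNOG00000047960 (0.87) and ENSRNOG00000008223 (0.87), for which no symbol was at hand.

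**Figure D4:**
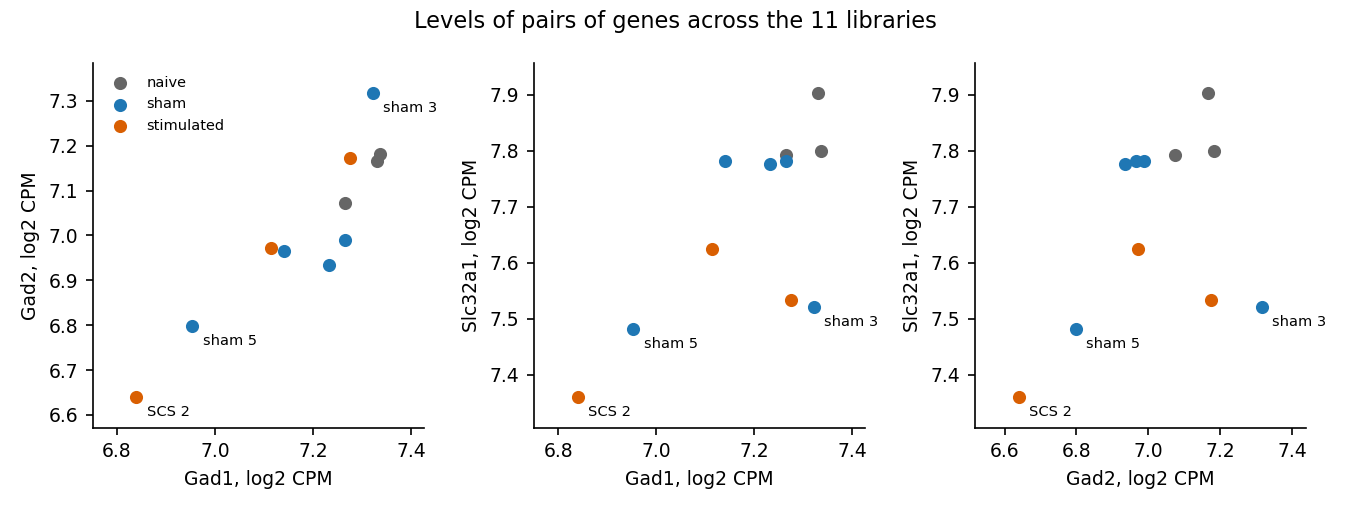
Log2 CPM of each pair of the 3 genes, one point per library, coloured by group. Gad1 and Gad2 lie along a line (r = 0.91), whereas in both plots with Slc32a1 the library sham 3 lies low and to the right.

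Ratios of counts within a library do not depend on the scaling between libraries. The ratio of Gad1 to Gad2 was 1.11 to 1.14 in naive, 1.00 to 1.23 in sham and 1.07 to 1.15 in stimulated libraries. The ratio of Slc32a1 to Gad1 was 1.38 to 1.49 in naive, 1.15 to 1.56 in sham and 1.20 to 1.43 in stimulated libraries. The ratio of Slc32a1 to Gad2 was 1.53 to 1.67 in naive, 1.15 to 1.79 in sham and 1.28 to 1.65 in stimulated libraries. For all 3 ratios the groups overlapped, so the lower Slc32a1 level of the stimulated group was not a lower level relative to the enzymes in every library. In SCS 2 and SCS 5 Slc32a1 stood at 1.65 and 1.57 times Gad2, within the naive range, while SCS 1 stood at 1.28. In SCS 1 the mRNAs of Gad1 and Gad2 were at naive levels and only that of Slc32a1 was low, and in SCS 2 all 3 were low.

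**Figure D5:**
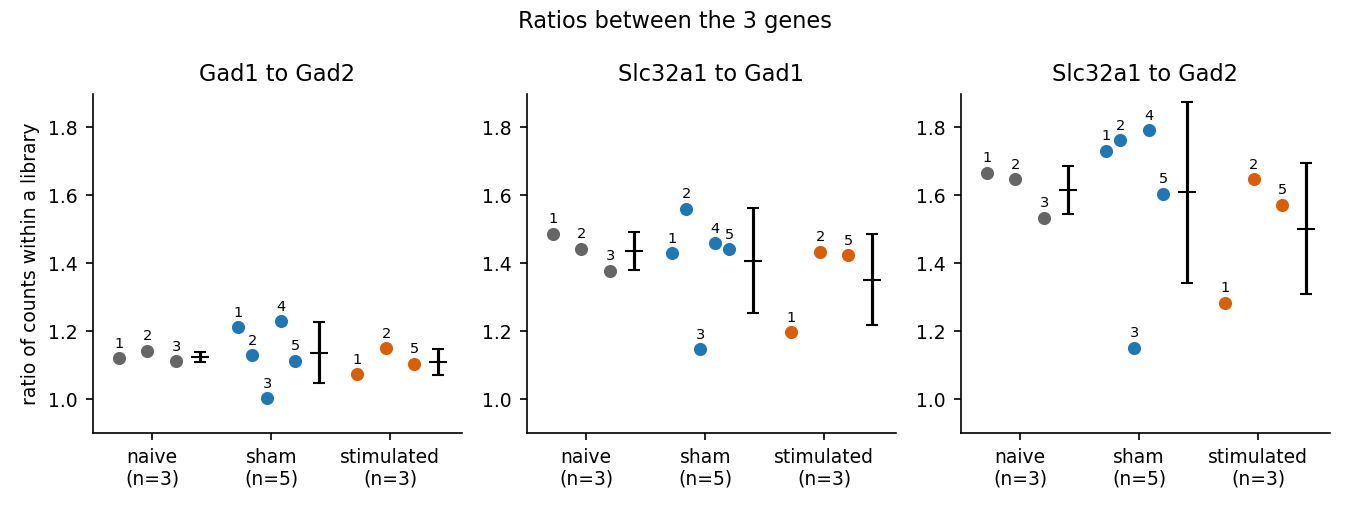
Ratio of counts of each pair of the 3 genes within a library (y axis, from 0.9) by group (x axis); numbers are title numbers and bars are mean ± SD. Sham 3 and SCS 1 have the lowest ratios of Slc32a1 to Gad2, at 1.15 and 1.28.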

How the data were processed

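The deposited table holds raw counts per Ensembl rat gene ID, made by the authors. HISAT2, featureCounts, DESeq2 and the build rn6 are listed, without versions, in the submitters' processing notes. Annotation and strand setting are not given in those notes, so reads of overlapping or antisense genes cannot be told apart. Columns were assigned by sample title, and 17 other sample columns were not used here. The title letter of the stimulated group is S, and the group label was followed.

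Genes were filtered with filterByExpr of edgeR 4.0.16 (R 4.3.3), which kept 15758 of 32623. All 11 libraries (11243288 to 56775931 counts) entered 1 quasi-likelihood fit with TMM scaling, a term per group and 8 residual degrees of freedom. Two-sided tests were used, with Benjamini-Hochberg adjustment over all tested genes and a threshold of 0.05. SE was the log2 fold change divided by the square root of F. The groups shared a single estimate of spread per gene, although spread within groups differed. With only the 2 groups compared, the SE of Gad1 in sham against naive was 0.070 instead of 0.092. In stimulated against sham it was 0.10 instead of 0.093. A prior count of 2 entered log2 CPM. The fit was tested on simulated data with larger changes than those of the members. Its recovery of differences as small as theirs was not examined. No pair of libraries of 1 group agreed within sampling noise (chi-square per degree of freedom 4.98 to 27.8). Alternatives were other scalings, no filter, DESeq2 1.42.0, limma-voom 3.58.1 with and without quality weights, fits of 2 groups, a replicate block and leaving out each library.

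The members and lists were chosen with earlier results of these data known. By the naming rule the text names the 3 genes, the called and the most abundant genes of lists of GABA, glycine and cell type marker genes, and the genes most alike to the members. The lists (20 lists, 125 symbols) could not be used, since 0 IDs matched a symbol, so the tissue was not checked against marker genes and at most 2 bare IDs were printed.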

Additional observations from a re-analysis of the deposited data

Results flagged for a closer look

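The log2 ratio of Slc32a1 to Gad1 was 0.20 in sham 3, far from the other 4 sham libraries, whose ratios of counts were 1.43 to 1.56 against 1.15 in sham 3. The log2 ratio of Slc32a1 to Gad2 was likewise 0.20 in sham 3, a ratio of 1.15 against 1.61 to 1.79 in the other 4. The gap to the nearest library was 0.716 and 0.751 of the range of the group, above the critical value of 0.71 for 5 libraries. The counting error of these ratios in sham 3 was 2.88% for both. Chance alone puts about 1 in 20 groups past this limit, and 7 measures were examined. The ratios share the Slc32a1 count, so these are not separate signals.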

How the results depend on the processing

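Of the 9 results (3 genes in 3 comparisons), the call of Slc32a1 in stimulated against naive held in 13 of 19 alternatives (edgeR, DESeq2 or limma-voom adjusted p 0.0114 to 0.151). It was lost in 5 of the 11 fits without 1 library, over a range of -0.38 to -0.24. Fits without a sham library left both groups compared unchanged, and of the others only that without SCS 5 kept the call. A replicate block also ended it (log2 fold change -0.35, edgeR adjusted p 0.0973). The title numbers were not taken as pairs, since the labels do not say that they pair rats. Same-numbered libraries correlated at -0.21 to 0.12 in their deviations, and 4 of 10 libraries correlated best with their own number. The number to be met without pairing was not computed, so these values do not decide whether the numbers mark pairs. No other call changed under the block. The remaining 8 results passed in 0 of 19 alternatives each. Directions in stimulated against sham turned without SCS 2 for Gad1 (0.017, range of the fits without 1 library -0.19 to 0.017) and Gad2 (0.073, range -0.18 to 0.073) and without sham 3 for Gad2 (0.023). The count of all tested genes called moved by over 1.5 times in several settings, from 22, 563 and 2342 genes in sham against naive, stimulated against sham and stimulated against naive to 9, 5 and 672 with the block. It was 133 and 1136 in the first and second with DESeq2, 44 in the first with quality weights and 140 in the second with 2 groups only. Without 1 library it was 6 to 56, 36 (without SCS 2) to 1057 (without sham 5) and 1018 to 2786. The cause was not tested. Settings for the pathway lists were not run, since no ID matched a symbol. Each value rests on at least 1370 counts, with a counting error of at most 2.70%.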
